A study of Homo sapiens with 15 samples.

Results

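The NR4A nuclear receptors and the classical immediate early transcription factors were followed in NCI-H295R, an aldosterone-producing line from a human adrenocortical carcinoma. The members were taken by name and were NR4A1, NR4A2, NR4A3, FOS, FOSB, JUN, JUNB, JUND, EGR1 and ATF3, which are 10 of 21493 genes in the files. All 10 were among the 14522 genes with enough counts to be tested. The study compared 15 RNA-Seq libraries. Active NFATc4 (3 libraries) is a plasmid, pcDNA3.T7, that carries an NFATc4 lacking its N-terminal regulatory domain and therefore active without calcineurin, and mock (4 libraries) is the same plasmid without an insert; RNA of both was taken 3 days after transfection. The libraries labelled NFATc4-KO (4, numbered 1, 2, 3 and 5) came from cells cotransfected with a pair of CRISPR guide plasmids and seeded as single cells, and those labelled control (4) from cells that received the empty plasmids in parallel. Neither labels nor methods state if the NFATc4-KO libraries are 1 clone or several, or if each library of a group is a culture of its own, so the tests speak of library-to-library spread, which may be technical.

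Immediate early genes are transcribed within minutes of a stimulus from factors already present in the cell, and no new protein is needed for it. Calcium, cyclic AMP and MAP kinase signals reach them through CREB at cyclic AMP response elements (CRE) and through serum response factor and its ETS partners at CArG boxes. The FOS and JUN proteins pair to form AP-1, EGR1 is a zinc finger factor, and ATF3 is a stress-induced factor of the ATF/CREB family. NR4A receptors have no known physiological ligand and act mainly through their amount. In the adrenal cortex they bind the NBRE element of steroidogenic genes, and NR4A1 and NR4A2 are known activators of CYP11B2, the aldosterone synthase gene.

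The stretches of promoter printed here belong to members that passed a test in the comparisons below. They show which of the elements named above lie close to a RefSeq start of the gene. They are RefSeq promoters of GRCh38.p14, 5′ to 3′ on the strand of the gene, cut to end before the first base of the annotated gene. Capitals mark the CRE half-site TGACG and the full CRE TGACGTCA, the CArG box, and the NBRE AAAGGTCA, on either strand. NR4A3 is at chr9:99821765-99821854 (plus strand), FOS at chr14:75278706-75278825 (plus), EGR1 at chr5:138465329-138465478 (plus), JUND at chr19:18281623-18281832 (minus) and ATF3 at chr1:212565197-212565333 (plus).
NR4A3: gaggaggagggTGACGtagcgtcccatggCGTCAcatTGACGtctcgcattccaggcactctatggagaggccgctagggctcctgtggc
FOS: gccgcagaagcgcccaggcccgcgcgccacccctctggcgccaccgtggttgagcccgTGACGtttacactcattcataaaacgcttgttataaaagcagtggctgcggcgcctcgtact
EGR1: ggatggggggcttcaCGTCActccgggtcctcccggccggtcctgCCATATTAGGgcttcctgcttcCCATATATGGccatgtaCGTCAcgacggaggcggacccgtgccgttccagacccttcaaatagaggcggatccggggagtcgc
JUND: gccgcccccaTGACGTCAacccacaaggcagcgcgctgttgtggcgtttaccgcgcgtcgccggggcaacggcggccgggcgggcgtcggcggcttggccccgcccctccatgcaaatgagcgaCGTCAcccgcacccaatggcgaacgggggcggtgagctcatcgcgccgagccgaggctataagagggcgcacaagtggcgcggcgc
ATF3: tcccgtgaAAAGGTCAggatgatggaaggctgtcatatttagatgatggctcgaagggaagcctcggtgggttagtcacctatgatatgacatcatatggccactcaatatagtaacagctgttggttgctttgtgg

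These windows differ in which elements they hold. In the 250 bases before the RefSeq start, 7 of 11 member windows held a CRE half-site, against 21.2% of 35116 windows of that length in the table. By gene these were 7 of the 9 members with an entry. NR4A1 and ATF3 had 2 windows each, and none of them held it. The NR4A1 entries were at chr12:52022582-52022881 and chr12:52037465-52037764, in a gene that ends at 52059507. Other starts within NR4A1 and ATF3 were not searched, so whether these genes have a CRE elsewhere is not shown. NR4A2 had no entry. NR4A3 held 4 half-sites, the first 109 bases before its start and 3 of them in the stretch printed, and FOS held 1 at 64 bases. EGR1 held a pair of CArG boxes, which begin 105 and 83 bases before the start, and 1.16% of windows held such a box. JUND held the only full CRE, 200 bases before the start and made of overlapping half-sites on both strands, which 1.65% of windows held. ATF3 had 2 entries with separate starts. The one printed held an NBRE, found in 1.05% of windows. The other, at chr1:212614768-212615067, held none of the elements searched, and neither held a CRE half-site. An AP-1 site, TGANTCA, was in no member window (6.57% of all windows), and an EGR site, GCGNGGGCG, was in that of EGR1 (8.41%). The NFAT core, GGAAA, was in 1 of the 2 windows of NR4A1 and in that of NR4A3 (55.6%). A match is a match of letters and says nothing of binding in these cells.

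Per length, as RPKM over the exons of each gene, the members spanned levels from JUND to FOSB in mock cells. The length covers all annotated exons, 7295 bases for NR4A1 and 1929 for JUND, and the order depends on it. In CPM, NR4A1 (226.7) was above JUND (89.8) in mock. JUND was at 46.5 ± 2.72 RPKM (SD, n = 4), NR4A1 at 31.1 ± 0.914, JUNB at 25.1 ± 1.06 and EGR1 at 11.6 ± 2.28. JUN (6.15 ± 0.837) and NR4A3 (5.90 ± 0.756) followed and were within their spread of each other. ATF3 was at 1.23 ± 0.124, and FOS (0.847 ± 0.0524), NR4A2 (0.793 ± 0.0547) and FOSB (0.679 ± 0.0983) were lowest, with neighbours within their spread. JUND and NR4A1 RNA was thus abundant in cells with the empty plasmid, while FOS was read from 62 to 70 counts in a mock library.

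The libraries differed little in depth and are described here once. Totals were 18.8 to 28.2 M counts per library, and the mitochondrial share was 8.82% to 13.1% of counts. NFATC4 RNA was 343.6 ± 14.7 CPM (counts scaled to a common library total with TMM factors; SD, n = 3) in active NFATc4 and 94.6 ± 8.02 CPM (n = 4) in mock libraries, a log2 fold change of 1.86 ± 0.07 (SE), in which reads of the plasmid and of the cell's own gene cannot be told apart. In the libraries labelled control, NFATC4 was 114.5, 109.9, 44.8 and 54.0 CPM in replicates 1 to 4, and in those labelled NFATc4-KO it was 92.7, 85.4, 57.5 and 53.6 CPM in replicates 1, 2, 3 and 5. These levels fell into 2 sets of libraries under both labels. Set A is control 1 and 2 with NFATc4-KO 1 and 2, set B is control 3 and 4 with NFATc4-KO 3 and 5, and the sets were drawn from how the libraries fell in these data. By label, NFATC4 had a log2 fold change of −0.33 ± 0.09 in set A (adjusted p = 0.0391, edgeR), where both libraries labelled NFATc4-KO were below both control libraries, of 0.17 ± 0.09 in set B (adjusted p = 0.252), where they overlapped, and of −0.08 ± 0.06 over both (adjusted p = 0.446). CYP11B2 also differed between the sets, at 2.33 to 3.27 CPM in set A and 0 to 0.137 CPM in set B, where 1 library had 0 counts, which allows up to 0.129 CPM for counting error. An edited gene can still be transcribed, so the NFATC4 level does not tell whether the protein was lost. Of 12 adrenocortical markers all had means above 1 CPM, and no endothelial or leukocyte marker of 6 each had a mean above 1 CPM over the 15 libraries, though the leukocyte marker CD68 had a mean of 1.42 CPM in active NFATc4. COL1A1, COL3A1 and FAP of 8 fibroblast markers, and CHGA and CHGB of 6 chromaffin markers, had means above 1 CPM.

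**Figure D1:**
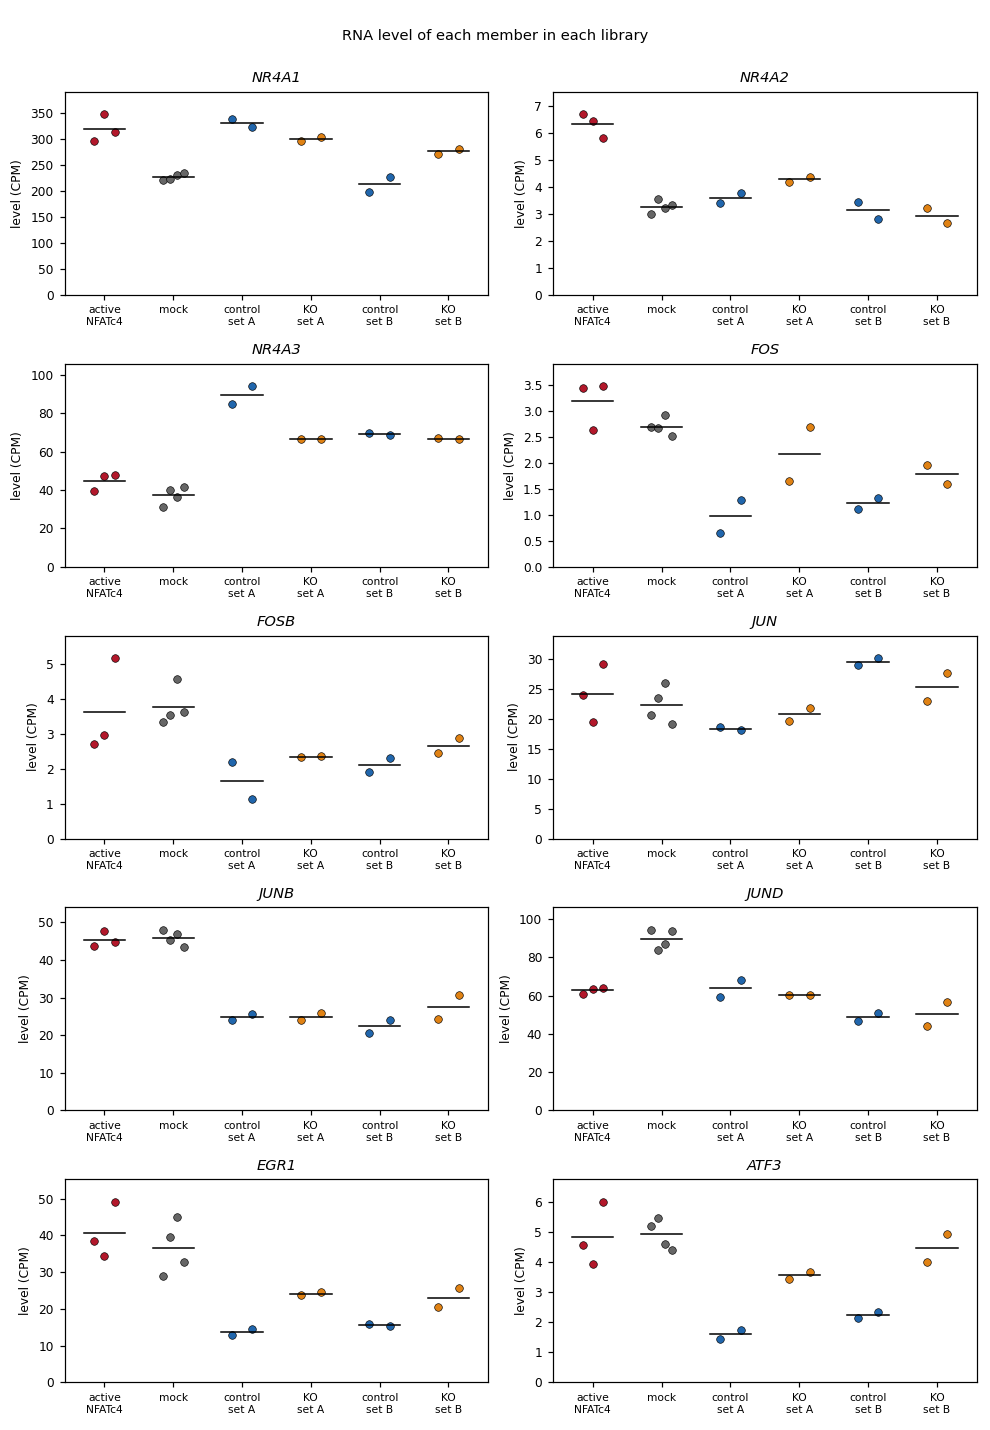
Level of each member in CPM on TMM-scaled totals, 1 point per library and a line at the group mean, with a linear axis from 0 in every panel. NR4A1 and NR4A2 are higher and JUND lower in all 3 active NFATc4 libraries than in all 4 mock libraries, and FOS, EGR1 and ATF3 are higher in every library labelled NFATc4-KO (KO in the plot) than in every control library.

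The first comparison was of active NFATc4 with mock libraries. All 3 NR4A genes passed the test as higher and JUND as lower, though the NR4A3 libraries overlapped between groups. FOS, FOSB, JUN, JUNB, EGR1 and ATF3 did not pass the test. In this comparison, 8.77% of all genes tested were higher and 7.68% lower at an adjusted p under 0.05 (edgeR quasi-likelihood test), against 3 and 1 of the 10 members. The members' median log2 fold change was 0.13, with −0.0029 over all genes tested. In RNA of whole cultures, a change in every cell and a change in the share of cells that express a gene cannot be told apart, nor can fewer cells of a type and less RNA per cell.

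NR4A2 (ENSG00000153234, chromosome 2, 156324437 to 156342348, minus strand), the NR4A receptor best known from dopamine neurons and an activator of CYP11B2, changed most among the members. It was at 6.68, 6.42 and 5.79 CPM in active NFATc4 libraries and at 2.99, 3.54, 3.20 and 3.30 CPM in mock libraries. The groups did not overlap. This was a log2 fold change of 0.95 ± 0.13 (SE; 1.94-fold, adjusted p = 5.21e-06, edgeR), and it was called under all 23 alternatives of filter, scaling, tool and library.

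NR4A1 (ENSG00000123358, chromosome 12, 52022832 to 52059507, plus strand), the Nur77 receptor that angiotensin II and potassium are known to induce in adrenal cells, was at 294.9, 347 and 313 CPM with active NFATc4 and at 219.8, 222, 231 and 233.5 CPM in mock. Again every active NFATc4 library lay above every mock library. The log2 fold change was 0.49 ± 0.06 (1.40-fold, adjusted p = 7.67e-07, edgeR). NR4A3 (ENSG00000119508, chromosome 9, 99821855 to 99866891, plus strand), the third receptor of the family, was at 39.3, 47.3 and 48.0 CPM against 31.1, 40.1, 36.1 and 41.8 CPM. Its groups overlapped, since active NFATc4 replicate 1 was below mock replicates 2 and 4. Its log2 fold change was 0.26 ± 0.08 (1.20-fold, adjusted p = 0.0305, edgeR).

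JUND (ENSG00000130522, chromosome 19, 18279694 to 18281622, minus strand), the JUN protein with the most constant expression and often a brake on growth, was at 61.1, 63.7 and 64.1 CPM with active NFATc4 and at 94.3, 83.9, 86.9 and 94.0 CPM in mock. All active NFATc4 libraries were below all mock libraries, by a log2 fold change of −0.51 ± 0.07 (0.701-fold, adjusted p = 1.64e-05, edgeR). In the set A libraries JUND was 59.4 to 68.4 CPM and NR4A1 295.1 to 339 CPM. Active NFATc4 libraries overlapped both ranges, and mock libraries neither. In set B, JUND (44.3 to 56.9 CPM) was below both groups, and NR4A1 (198 to 281 CPM) overlapped mock. In set A, NR4A2 (3.40 to 4.36 CPM) was below active NFATc4 and NR4A3 (66.7 to 94.3 CPM) above it. The sets also differ from these groups in how the cells were made, and this was not tested. Exact two-sided permutation of log2(CPM + 0.5) gave p = 0.0571 for NR4A1, NR4A2 and JUND, the smallest that 3 against 4 libraries allow. For NR4A3 the same permutation gave p = 0.171. Over all genes tested, 12.4% had every active NFATc4 library above every mock library and 11.8% had every one below, against 2 and 1 of the 10 members, so such a separation is common here.

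The 6 other members showed no called change here. FOS, the usual marker of acute stimulation, had a log2 fold change of 0.24 ± 0.18 (adjusted p = 0.433, edgeR) and EGR1 one of 0.15 ± 0.14 (adjusted p = 0.532). Those of FOSB (−0.08 ± 0.20), JUN (0.12 ± 0.11), JUNB (−0.01 ± 0.07) and ATF3 (−0.04 ± 0.14) had adjusted p values from 0.56 to 0.93. In all 6 genes the active NFATc4 and mock libraries overlapped. Changes within these errors were not detectable with these libraries.

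The call of NR4A3 held under 16 of 23 alternatives and ended with limma-voom, with these groups fitted alone, with 1 mean per label, and without active NFATc4 replicate 2 or 3 or mock replicate 1 or 3 (adjusted p from 0.00186 to 0.297, edgeR, DESeq2 and limma). That of NR4A1 ended under 1 alternative, 1 mean per label without sets, at an adjusted p of 0.0795 (range 3.21e-15 to 0.0795).

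Single genes of related lists also passed the test. CYP11B2 rose by 4.06 ± 0.13 on the log2 scale, from 2.33 ± 0.521 to 38.3 ± 2.66 CPM. Of 5 NR4A-responsive steroidogenic genes tested 3 rose and 1 fell, and besides CYP11B2 these were HSD3B2 (0.60 ± 0.08), CYP21A2 (0.24 ± 0.06) and, lower, CYP17A1 (−0.46 ± 0.07). Of 13 other AP-1 and EGR genes 2 rose and 2 fell, with a median of 0.10. FOSL1, a FOS relative, rose by 1.37 ± 0.26 from 0.515 to 1.35 CPM, while EGR2 (−0.69 ± 0.23) and FOSL2 (−0.27 ± 0.07) fell. Of 8 AP-1 target genes 3 rose and 1 fell, led by MMP9, a matrix protease, at 2.11 ± 0.24, with MMP2 (0.48 ± 0.10) and TIMP1 (0.21 ± 0.06) higher and VIM (−0.27 ± 0.05) lower.

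Among 37 other immediate early genes, 5 rose and 4 fell, with a median of 0.04. ID1 (1.39 ± 0.11) and ID3 (1.32 ± 0.12), inhibitors of basic helix-loop-helix factors, and CCN2 (1.10 ± 0.31) rose, and MYC (−0.58 ± 0.07) fell. Of 15 feedback regulators of MAP kinase and EGR signaling 4 rose and 1 fell. SPRY4 (1.27 ± 0.20) and the MAP kinase phosphatases DUSP4 (0.99 ± 0.13) and DUSP5 (0.51 ± 0.06) were higher, and SPRY1, near the lower limit of detection, was at −1.90 ± 0.64. Of 34 upstream factors and kinases 3 rose and 4 fell, with a median of −0.05, led by ELK3, an ETS partner of serum response factor (0.74 ± 0.16), CAMK1 (−0.61 ± 0.12), CAMK1D (0.34 ± 0.11) and MAPK14 (−0.25 ± 0.05). Of 12 integrated stress response genes 1 rose and 3 fell, and DDIT4 fell most (−1.24 ± 0.15), with CHAC1 (−0.42 ± 0.14), XPOT (−0.16 ± 0.05) and, higher, ASNS (0.24 ± 0.07).

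Markers moved beside these. Of 12 adrenocortical markers 4 rose and 1 fell, with the ACTH receptor MC2R at 0.97 ± 0.11. Their summed level was 5574 to 6329 CPM with active NFATc4 and 5014 to 5546 CPM in mock. Most of that sum was SCARB1, with means of 3610 and 3110 CPM. Of 5 fibroblast markers tested COL3A1 (1.65 ± 0.08) and LUM (1.59 ± 0.43) rose. LUM, at 0.601 against 0.202 CPM, was near the lower limit of detection. The fibroblast list summed to 91.1 to 99.8 CPM against 62.4 to 65.6 CPM. Of 2 leukocyte markers tested CD68 rose (1.81 ± 0.28), with the list at 1.90 to 2.79 CPM against 0.862 to 0.998 CPM. The single endothelial marker and the 2 chromaffin markers tested were not called. The part of these in the members' changes was not tested.

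**Figure D2:**
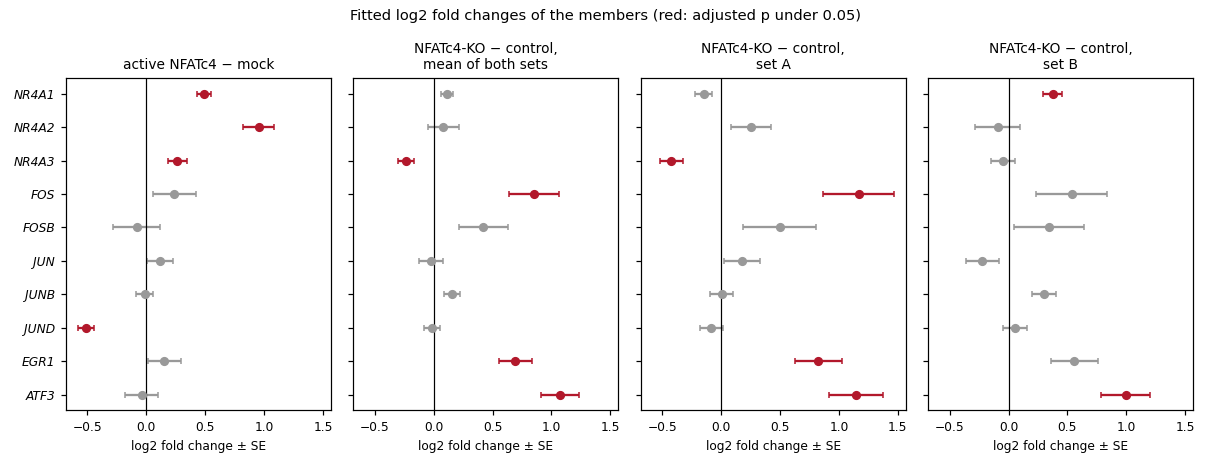
Log2 fold changes of the 10 members with their SE, from the edgeR fit of all 15 libraries, for active NFATc4 against mock and for NFATc4-KO against control over both sets, in set A and in set B. Red points passed an adjusted p under 0.05: the NR4A genes and JUND with active NFATc4, FOS, EGR1, ATF3 and NR4A3 by label over both sets and in set A, and ATF3 and NR4A1 in set B.

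The second comparison was of libraries labelled NFATc4-KO with those labelled control, as the mean of the differences within set A and within set B. Here ATF3, EGR1 and FOS rose and NR4A3 fell, while NR4A3 was also called, as higher, with active NFATc4. The comparisons were not tested against each other. Of all genes tested 5.67% were higher and 6.31% lower, against 3 and 1 of the 10 members, and the members' median was 0.13 (0.0007 over all genes).

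ATF3 (ENSG00000162772, chromosome 1, 212565334 to 212620777, plus strand) had the largest change. It was at 3.44, 3.69, 4.01 and 4.93 CPM in libraries labelled NFATc4-KO 1, 2, 3 and 5, and at 1.46, 1.76, 2.15 and 2.34 CPM in control 1 to 4. The labels did not overlap, within a set or over both. The log2 fold change was 1.07 ± 0.16 (2.10-fold, adjusted p = 0.00012, edgeR).

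EGR1 (ENSG00000120738, chromosome 5, 138465479 to 138469303, plus strand) was at 23.6, 24.5, 20.5 and 25.6 CPM under the NFATc4-KO label and at 12.8, 14.4, 15.9 and 15.4 CPM under the control label. Every library labelled NFATc4-KO was above every library labelled control. Its log2 fold change was 0.69 ± 0.14 (1.62-fold, adjusted p = 0.00502, edgeR).

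FOS (ENSG00000170345, chromosome 14, 75278826 to 75282230, plus strand) was at 1.65, 2.68, 1.96 and 1.59 CPM against 0.648, 1.29, 1.12 and 1.33 CPM, from 34 to 64 counts against 16 to 33. The labels again did not overlap, though counts this low leave a wide error. Their log2 fold change was 0.85 ± 0.21 (1.81-fold, adjusted p = 0.01, edgeR). FOSB (ENSG00000125740, chromosome 19, 45467995 to 45475179, plus strand), the closest FOS relative, was at 2.33, 2.35, 2.43 and 2.87 CPM against 2.19, 1.13, 1.89 and 2.29 CPM. These did not overlap either, and the log2 fold change of 0.42 ± 0.21 did not pass the test (adjusted p = 0.214, edgeR).

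NR4A3 was at 66.9, 66.7, 67.0 and 66.7 CPM in the libraries labelled NFATc4-KO, an SD of 0.160 CPM, and at 84.8, 94.3, 69.5 and 68.7 CPM in those labelled control. The labels did not overlap, and nearly all of the difference was between the set A libraries. The log2 fold change was −0.24 ± 0.07 (0.849-fold, adjusted p = 0.0356, edgeR). Within-set exact permutation gave p = 0.0556 for ATF3, EGR1, FOS, FOSB and NR4A3, the smallest that 36 arrangements allow, and permutation over all 8 libraries gave p = 0.0286, the smallest of 70. Of all genes tested, 9.75% had every library labelled NFATc4-KO above, and 10.9% below, every control library of its set, and 3.65% and 3.03% did so over both sets together, against 4 and 1 of the 10 members either way.

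Members without a called difference were NR4A1 (0.11 ± 0.05, adjusted p = 0.171), NR4A2 (0.08 ± 0.13, adjusted p = 0.735), JUN (−0.02 ± 0.10, adjusted p = 0.925), JUNB (0.15 ± 0.07, adjusted p = 0.185) and JUND (−0.01 ± 0.07, adjusted p = 0.928), all from edgeR. JUN (ENSG00000177606, chromosome 1, 58776845 to 58784048, minus strand) and JUNB (ENSG00000171223, chromosome 19, 12791486 to 12793315, plus strand) are partners of FOS in AP-1. JUNB overlaps HOOK2 and FOSB overlaps ERCC1 on the opposite strand. Whether counting used strand is not given in the sources used here.

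The calls of ATF3 and EGR1 held under all 23 alternatives, with adjusted p up to 0.0297 and 0.0496. That of FOS ended under 4 (1 mean per label, the replicate number as a block, without control 1, and without NFATc4-KO 2; adjusted p from 0.000996 to 0.115), and that of NR4A3 under 9, with the block and without any 1 of 7 libraries among them (0.00225 to 0.351).

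Within set A, 1.04% of all genes were higher and 1.74% lower by label, against 3 and 1 members. ATF3 (1.15 ± 0.23, adjusted p = 0.0105), EGR1 (0.82 ± 0.20, adjusted p = 0.0403) and FOS (1.17 ± 0.30, adjusted p = 0.0356, all edgeR) were higher, and NR4A3 (−0.42 ± 0.10, adjusted p = 0.027) was lower. The EGR1 call held under 13 of 21 alternatives, and ended also without libraries outside set A (active NFATc4 1, mock 2, control 3 or control 4). Within set B, 5.31% of genes were higher and 4.52% lower, against 2 and 0 members. These were ATF3 (0.99 ± 0.21, adjusted p = 0.00478, edgeR) and NR4A1 (0.38 ± 0.08, adjusted p = 0.003). EGR1 (0.56 ± 0.20, adjusted p = 0.091) and FOS (0.54 ± 0.30, adjusted p = 0.272) did not pass in set B, and a difference between the sets was not called for either (adjusted p = 0.659 and 0.484). Each of these calls rests on 2 libraries against 2. All 4 in set A ended when any 1 of its libraries was left out (adjusted p up to 0.308 for NR4A3, 0.453 for FOS, 0.282 for EGR1 and 0.137 for ATF3, edgeR), and both in set B ended without control 3 or NFATc4-KO 5 (up to 0.111 for ATF3 and 0.121 for NR4A1), with the lone library then assumed to vary like the others.

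NR4A1 was lower by label in set A, where this was not called (−0.15 ± 0.07, adjusted p = 0.306, edgeR), and higher in set B. In set A it was 295.1 and 303 CPM in libraries labelled NFATc4-KO and 339 and 323 CPM in those labelled control, and in set B it was 270.5 and 281 CPM against 198 and 227 CPM. The difference of the log2 fold changes, set B minus set A, was 0.52 ± 0.11 and did not pass the test (adjusted p = 0.0704, edgeR). None of the 10 members was called for this difference, where 0.0482% of all genes were, and 7 alternatives of 20 called NR4A1 (adjusted p from 0.000545 to 0.59). At an unadjusted p under 0.05, NR4A1 and NR4A3 passed in edgeR, 2 of the 10, as did 15.1% of all genes, and DESeq2 and limma-voom called 1 member each after adjustment.

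Related lists were also read by label. Of 13 other AP-1 and EGR genes 0 passed, with a median of 0.05, and within set B MAFG passed (0.26 ± 0.07). Of 37 other immediate early genes 6 rose and 5 fell. ARC, a neuronal immediate early gene at 0.683 against 0.231 CPM (1.42 ± 0.41), IER5 (0.88 ± 0.12), GADD45B (0.49 ± 0.09) and KLF10 (0.48 ± 0.11) rose most. IER5 rose in set A (0.74 ± 0.14) and set B (1.01 ± 0.19). Of 15 feedback regulators 1 rose and 4 fell. DUSP6, the ERK phosphatase, was lower (−0.38 ± 0.09), as were DUSP5 (−0.31 ± 0.06) and DUSP10 (−0.29 ± 0.09), and NAB2, a corepressor of EGR1, was higher (0.35 ± 0.08). Within set A, DUSP6 was at −0.78 ± 0.13, SPRED2 at −0.53 ± 0.11 and DUSP5 at −0.42 ± 0.09, and 0 of 15 passed in set B. The difference between the sets was called for 0 of these 15.

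Of 34 upstream factors and kinases 6 rose and 4 fell, with CAMK4 (0.67 ± 0.22) and ELK3 (0.56 ± 0.16) higher and CAMK1 (−0.43 ± 0.11) and CAMK1D (−0.41 ± 0.11) lower. Within set B, CRTC1 (0.44 ± 0.10) and CRTC2 (0.37 ± 0.08), coactivators of CREB, and SRF (0.35 ± 0.08) rose, while CAMK1 (−0.46 ± 0.15) and CREM (−0.30 ± 0.07), a CREB relative, fell. In set A 0 of 34 passed, and the difference between the sets was called for 0 of 34. Of 12 integrated stress response genes 3 rose and 1 fell. These were SESN2 (0.42 ± 0.08), ASNS (0.29 ± 0.07), DDIT3 (0.25 ± 0.08) and, lower, CEBPB (−0.30 ± 0.08). Of 8 AP-1 target genes VIM alone passed (−0.18 ± 0.05).

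Steroidogenic genes differed by label, in part in 1 set. Of 5 NR4A-responsive steroidogenic genes tested 4 fell, CYP17A1 (−0.74 ± 0.07), HSD3B2 (−0.45 ± 0.09), STAR (−0.42 ± 0.05) and CYP21A2 (−0.30 ± 0.06). CYP11B2 had a log2 fold change of 0.16 ± 0.58 over both sets. It was at −0.02 ± 0.23 in set A and at 0.34 ± 1.15 in set B, where libraries had 0 to 3 counts. CYP17A1 and STAR fell in both sets, with CYP17A1 at −0.72 ± 0.09 and −0.76 ± 0.09 and STAR at −0.47 ± 0.08 and −0.36 ± 0.08 in sets A and B. CYP21A2 fell in set A (−0.75 ± 0.08) and was at 0.15 ± 0.09 in set B, and this difference passed the test (0.91 ± 0.12, adjusted p = 0.00119, edgeR). HSD3B2 fell in set A (−0.72 ± 0.12) and was at −0.18 ± 0.12 in set B, with a difference that was not called (adjusted p = 0.196). Of 12 adrenocortical markers, which include those 4, 7 fell, with a median of −0.29. Their summed level was 4511 to 4551 CPM in NFATc4-KO against 5818 to 5881 CPM in control libraries of set A, and 4774 to 4836 against 4365 to 4827 CPM in set B. In set A most of the sum was SCARB1, with means of 2915 against 3647 CPM. COL3A1 (−0.46 ± 0.09) and FAP (−0.32 ± 0.06) of the fibroblast markers and CHGB (−0.28 ± 0.06) of the chromaffin markers fell, while no endothelial or leukocyte marker passed. The fibroblast list summed to 62.3 to 62.6 against 67.4 to 72.0 CPM in set A and to 52.4 to 55.7 against 70.9 to 75.9 CPM in set B. The part of these lists in the members' differences was not tested.

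**Figure D3:**
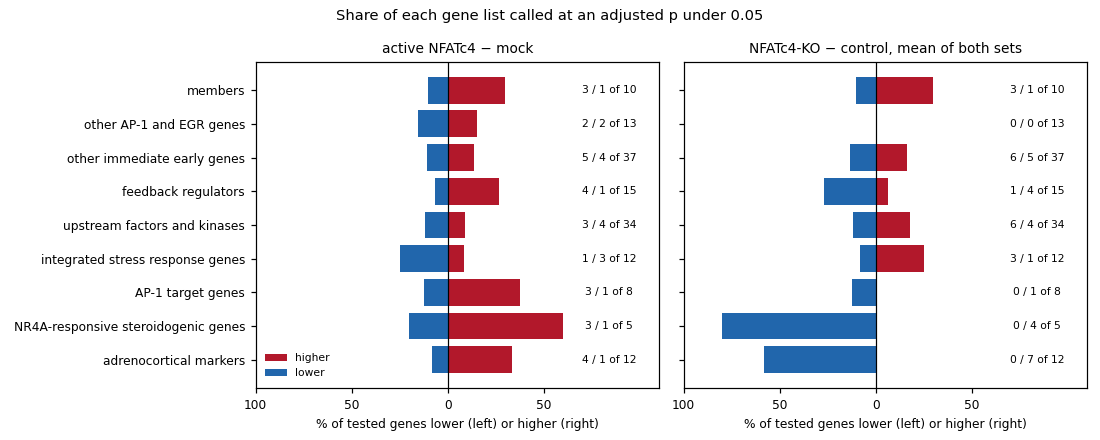
Share of the tested genes of each list that passed an adjusted p under 0.05 (edgeR), higher to the right and lower to the left, with the counts higher and lower of the number tested. The members stand at 3 higher and 1 lower of 10 in both comparisons, while the NR4A-responsive steroidogenic genes stand at 3 higher and 1 lower of 5 with active NFATc4 and at 0 higher and 4 lower by label.

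Levels also differed between set A and set B, within the same label. Because the sets were drawn from these data, this is a description with no test. Over all genes tested, 20.0% had every set A library above every set B library and 17.1% had every one below, and of the members NR4A1 and JUND were above and JUN below. NR4A1 was 295.1 to 339 CPM in set A and 198 to 281 CPM in set B. JUND was 59.4 to 68.4 CPM against 44.3 to 56.9 CPM. JUN, the main AP-1 partner of FOS, was 18.2 to 21.8 CPM against 23.05 to 30.2 CPM.

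The fitted log2 differences, set A minus set B over both labels, were 0.38 for NR4A1, 0.37 for NR4A2, 0.32 for JUND, 0.19 for NR4A3, −0.49 for JUN, −0.40 for ATF3 and −0.26 for FOSB. Those of FOS (−0.01), JUNB (0.01) and EGR1 (−0.07) were near 0. These values were not equal under both labels. NR4A1 differed by 0.64 between the control libraries and by 0.12 between the NFATc4-KO libraries, and NR4A2 by 0.19 and 0.54. JUN differed by −0.69 and −0.29, JUND by 0.39 and 0.25, and ATF3 by −0.48 and −0.32. For comparison, NFATC4 differed by 0.93 on the same scale.

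**Figure D4:**
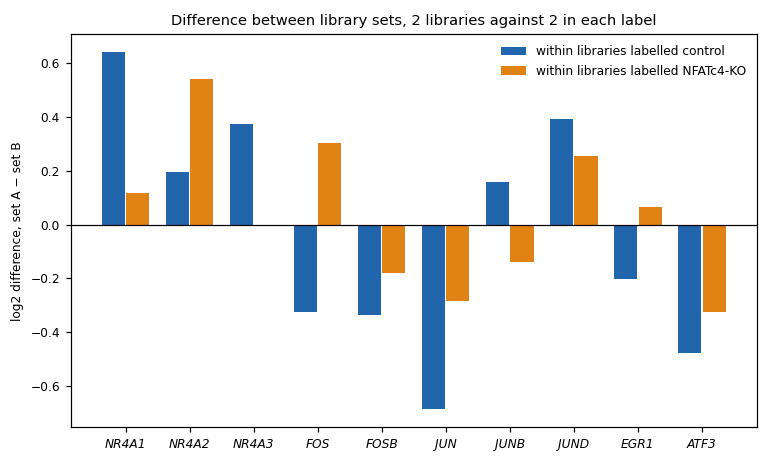
Fitted log2 difference, set A minus set B, for each member within the libraries labelled control and within those labelled NFATc4-KO, 2 libraries against 2. JUN is negative and JUND positive under both labels, while the NR4A1 bar is 0.64 within control and 0.12 within NFATc4-KO.

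The 7 libraries of active NFATc4 and mock and the 8 labelled control and NFATc4-KO stood apart in some members. Cells of all 15 had received plasmids, the 7 being taken 3 days after it. The treatments and cultures behind the difference cannot be told apart. JUNB was at 43.5 to 48.0 CPM in the 7 and 20.6 to 30.6 CPM in the 8, and EGR1 at 28.9 to 49.1 against 12.8 to 25.6 CPM. NR4A3 was at 31.1 to 48.0 against 66.7 to 94.3 CPM. Of all genes tested 4.96% were higher and 6.86% lower in each of the 7 than in each of the 8, against 2 and 1 members, with no test. Within the 7, JUNB and EGR1 did not differ between active NFATc4 and mock beyond their spread.

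Across the 15 libraries the members did not move as one. The highest Pearson correlation of log2 CPM among 45 pairs was that of FOS and EGR1 (r = 0.917, Spearman rho = 0.882), followed by EGR1 and ATF3 (r = 0.90), while NR4A3 ran opposite to JUNB (r = −0.893). NR4A1 and NR4A2 correlated at 0.576. These values are descriptions across libraries that share groups. The tested genes most like NR4A1 were MC1R (r = 0.941), FTCD and FANCG, those most like NR4A2 were RGS4 (0.937), ADAM19 and PAK6, and those most like NR4A3 were SYNE3 (0.973), IZUMO1 and ACACB. EGR1 was most like NXN (0.962), TENT5C and CSRNP1, ATF3 like RAB3IP (0.97), PRNP and SERTAD1, and FOS like ASAH1 (0.926), CHCHD7 and METRNL. FOSB was most like B4GALT1 (0.887) and SMAP2, JUN like NID1 (0.847), FAM111B and SRD5A2, JUNB like TAP1 (0.984), RUNX2 and PHC2, and JUND like MT-ND3 (0.965), KLHDC3 and EBP.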

How the data were processed

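The deposited files hold raw counts of reads per gene, 1 library to a file. The authors made them from stranded mRNA libraries by trimming with fastp, aligning with STAR to GRCh38.p13 and counting with featureCounts; versions, strand and multi-mapping settings are not given in the sources used here. TMM factors, CPM and the tests were then obtained from these counts in edgeR 4.0.16 under R 4.3.3, with DESeq2 1.42.0 and limma 3.58.1 as alternatives. Genes kept by filterByExpr (14522 of 21493) entered 1 quasi-likelihood fit of 15 libraries with 6 means (active NFATc4, mock, and control and NFATc4-KO of each set), leaving 9 residual degrees of freedom. Because the sets were drawn from these data, the fits condition on them. Benjamini-Hochberg adjustment covered all genes tested, and calls were made under 0.05. The F statistic and the log2 fold change gave the standard error (fold change over root F). RPKM used GENCODE 44 exon lengths. Single members were tested by exact permutation of log2(CPM + 0.5). Alternatives are given below. The fit was tested on simulated counts.

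The members and lists were chosen with earlier results of these data known. The text names all members, up to 4 called genes per list and comparison, and the 3 genes most correlated with each member. Some genes that this rule names are not reported here. Depth was 18.8 to 28.2 M counts, and a count of 0 allows 0.108 to 0.158 CPM by library, for counting error only. Control and NFATc4-KO libraries with the same number deviated together from label means (r = 0.80, 0.778 and 0.701 for numbers 1, 2 and 3), but other numbers of the same set did so too (0.772 and 0.786), and from set-and-label means the values were 0.0435, 0.0435 and 0.0462. Active NFATc4 and mock gave 0.0985, −0.0908 and 0.0425, so numbers were not taken to pair libraries.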

Additional observations from a re-analysis of the deposited data

Results flagged for a closer look

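For a pair of members, the libraries lay on opposite sides by label in the 2 sets, mostly by differences that were not called within a set. NR4A1 had a log2 fold change of −0.15 in set A (adjusted p = 0.306, edgeR) and 0.38 in set B (adjusted p = 0.003), and JUN of 0.18 (adjusted p = 0.588) and −0.22 (adjusted p = 0.35). For NR4A1, the difference of the log2 fold changes, set B minus set A, was 0.52 ± 0.11 (SE). Both libraries labelled NFATc4-KO were below both control libraries in set A and above both in set B, and the test of the difference gave an adjusted p of 0.0704 in edgeR (0.000545 to 0.59 over 20 alternatives). For JUN, the difference was −0.40 ± 0.21, with both libraries labelled NFATc4-KO above both control libraries in set A and below both in set B, and an adjusted p of 0.365 in edgeR (0.199 to 0.80). Neither passed the threshold, and each set holds 2 libraries against 2.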

How the results depend on the processing

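Each result was computed again with DESeq2's size factors, no filter, DESeq2's Wald test, a filter of 50 counts in 3 libraries, only the groups compared, limma-voom, 1 mean per label without sets, a replicate block, and each library left out. With 1 mean per label, 536 genes were called for active NFATc4 against mock, 2 of them members, and 63 by NFATc4-KO label, 2 of them members; in that fit the set difference is counted as spread. With the replicate block, 139 genes were called by label, 2 of them members (ATF3 and EGR1), and for active NFATc4 1980 genes and 4 members; the numbers were not taken to pair libraries. In set A, no filter gave 798 genes, limma-voom 2202 and only those groups 2314; JUNB, near 0, was −0.0018, −0.0030, −0.0010 and −0.0019 with DESeq2 size factors, no filter, the 50-count filter and DESeq2's test. In set B, no filter called 4 members. For the difference between sets, no filter, DESeq2 and limma-voom each called 1 member. The cause of these was not tested.

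With each library left out, genes called for active NFATc4 were 1483 (without active NFATc4 2) to 2649, and log2 fold changes were −0.40 to 0.094 for FOSB, −0.033 to 0.25 for JUN, −0.051 to 0.014 for JUNB, −0.003 to 0.26 for EGR1 and −0.21 to 0.091 for ATF3. By label over both sets, 785 (without NFATc4-KO 5) to 2237 genes and 2 to 4 members were called, with JUN at −0.091 to 0.036 and JUND at −0.11 to 0.065. In set A, 15 (without control 2) to 685 genes and 0 to 4 members were called, with JUNB at −0.046 to 0.050 and JUND at −0.18 to 0.021. In set B, 108 (without NFATc4-KO 5) to 2168 (without control 4) genes and 0 to 4 members were called, with NR4A2 at −0.24 to 0.062 and JUND at −0.13 to 0.22. For the difference between sets, 0 to 1 members were called, with FOSB at −0.70 to 0.25 and JUND at −0.05 to 0.30. FOS, FOSB, NR4A2 and ATF3, with the fewest counts, are those whose small changes depth limits most.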
